A study of Mus musculus with 16 samples.

Results

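Succinyllysine chromatin immunoprecipitation followed by sequencing (ChIP-seq) in immortalized mouse embryonic fibroblasts gave 10888 regions, of 135884 regions in the lists for 3 antibodies. These regions came from the 4 samples precipitated with an antibody to succinyllysine. A protein-coding gene was called marked when a region overlapped, by 1 bp or more, a window that reached 1000 bp to each side of a gene end. This held for 1187 of 21887 genes (5.42%, exact 95% interval 5.13 to 5.73). Every share of genes below is read against this background of 5.42%.

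Both cell lines carried the doxycycline-controlled transactivator R26M2rtTA and a TetOcre transgene, and both received doxycycline at 1 µg/mL to switch on Cre recombinase. The experimental line was R26M2rtTA/+;TetOcre;Sdhcfl/fl, in which Cre can remove both copies of Sdhc, and the control line was R26M2rtTA/+;TetOcre;Sdhcfl/wt, which keeps a copy that Cre cannot remove. Cells were collected at day 16, with 2 succinyllysine samples per line. Each genotype was represented by a single labelled line, and nothing in the labels says that the 2 samples of a line were separate cultures. The deposited list is single and shared, with start and end positions only. It gives no value per sample, no depth and no line of origin for a region, so the lines were not compared and each count below is a single observation. The floxed gene itself, Sdhc, had a region of 900 bp at an end, and since the list does not say which line gave it, this is no check of the deletion.

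Succinylation is the attachment of a succinyl group, the acyl part of succinyl-CoA, to a lysine side chain, which turns its positive charge negative. It occurs on mitochondrial enzymes and on histones, where the lysines that carry it also carry acetyl and methyl groups. The antibody recognises succinyllysine as such, so a region shows where succinylated protein was crosslinked to DNA and does not say which protein carried it. H3K4me3, trimethylation of histone H3 at lysine 4, is a mark of active promoters and H3K27me3 is the mark of Polycomb-repressed chromatin; their lists, of 26654 and 98342 regions, serve as the reference for position.

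Of the 12 fibroblast markers looked up, 5 were marked by succinyllysine and 11 had an H3K4me3 region at an end. Vim, Fn1, Col1a2, Ddr2 and S100a4 were the marked ones, and Thy1 had no region of any of the 3 lists. Prrx1 was unmarked by its gene ends but had a region of 6900 bp across its annotated start, which lies inside those ends. The same held for Nfix, with 15100 bp across its start. Of the 904 genes with a region at any annotated start, 99 (11.0%) were not marked at a gene end. Unmarked, here and below, therefore means only that no region was listed at a gene end. Among 30 markers of epithelial, endothelial, blood, neural, muscle and pluripotent cells, succinyllysine marked Krt8, an epithelial keratin, and Cd68, a macrophage protein. Cd68 lies in a row of marked neighbours described below, and Krt8 had no H3K4me3 region.

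The regions covered 19 microRNA genes whole, out of 1228 (1.55%). MicroRNAs are short RNAs that silence messenger RNAs by pairing through a seed, bases 2 to 8. The covering regions were 900 to 6400 bp wide with a median of 2300 bp, and 18 of the 19 also touched an H3K4me3 region. Among all regions over 2000 bp in the list 44.9% did, a set not matched in width to the 19. Mature sequences were found in the RefSeq table (GRCm38.p6, the mm10 coordinates) for 17 of these genes and gave 29 different mature microRNAs with 29 different seeds, so the covered genes were not members of a single seed family. Those of general interest in fibroblasts follow, written 5′ to 3′ with the seed in capitals.

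miR-21a-5p: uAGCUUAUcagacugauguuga
miR-199a-5p: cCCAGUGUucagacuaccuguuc
miR-199a-3p: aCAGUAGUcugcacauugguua
miR-125b-5p: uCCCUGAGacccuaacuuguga
let-7i-5p: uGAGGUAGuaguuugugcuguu
miR-196b-5p: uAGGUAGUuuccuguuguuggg
miR-92b-3p: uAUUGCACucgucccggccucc
miR-574-3p: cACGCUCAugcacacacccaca

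MiR-21a is abundant in proliferating and fibrotic cells, and its gene lay in a region of 4000 bp. MiR-199a is made from a pair of genes on different chromosomes, Mir199a-1 and Mir199a-2, and both were covered, by regions of 1400 and 3600 bp. Mir125b-1 had the widest covering region, at 6400 bp. Mir196b, which sits among the Hoxa genes, was covered by a region of 5000 bp, and Mirlet7i, of the let-7 family of growth-restraining microRNAs, by a region of 1200 bp. These genes were picked for naming after the covered set was seen.

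Of the 10888 regions, 1139 (10.5%, 9.89 to 11.1) lay at a protein-coding gene end, 3022 (27.8%) inside a gene body and 6727 (61.8%) outside genes and their windows. Regions at gene ends were wider, with a median of 1100 bp and a middle range of 700 to 1700 bp, against a median of 300 bp elsewhere. The narrowest size in the list, 200 bp, made up 7.37% of the regions at gene ends and 46.9% of the others. Among regions over 2000 bp, however, 191 lay at a gene end and 591 did not. The median distance from a region to the nearest gene end was 68623 bp over the whole list, 9458 bp for regions over 2000 bp and 141300 bp for regions of 200 bp. Wide regions were therefore nearer to genes than narrow ones without mostly being at their ends.

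A region covered the gene end itself in 402 genes, lay 1 to 500 bp from it in 620 genes and 501 to 1000 bp from it in 165 genes. Beyond the window, 119 genes had their nearest region at 1001 to 1500 bp. Immediately around the threshold, 22 genes had it at 901 to 1000 bp and 28 at 1001 to 1100 bp. Most marked genes, 1034 of 1187, had a single region at their ends. Conversely, 192 regions served the ends of 2 genes at once and 7 regions those of 3 genes. A region at the shared last exons of the Ugt1a genes reached the ends of 9 genes.

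A strand was available for 17492 genes, of which 987 were marked. In 751 of the 987 (76.1%) the region lay at the start alone, in 163 (16.5%) at the far end alone and in 73 (7.40%) at both. Genes marked at the start alone had H3K4me3 at an end in 93.7% of cases, and genes marked at the far end alone in 65.6%. The genes marked at both ends were short, with a median length of 1917 bp against 16260 bp for those marked at the start alone. The windows of 1000 bp around both ends overlap in genes this short, so a single region can count at both. Their shortness therefore follows in part from how ends were scored. In 60 of the 163 genes marked at the far end alone, the region also lay within 1000 bp of an annotated start, of the same gene or of another.

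Position around the start was then read at 100 bp steps, using for each gene the outermost start in the RefSeq promoter table. A region lay within 1000 bp of this start in 853 of 17492 genes. Coverage of these genes formed 2 shoulders with a gap at the start between them. It was 60.0% (56.6 to 63.3) at 600 bp upstream, 27.7% (24.7 to 30.8) at the start and 41.3% (37.9 to 44.7) at 600 bp downstream. H3K4me3 regions in the same genes covered 75.7% at 600 bp upstream, 86.3% at the start and 89.4% at 600 bp downstream. Between its shoulders succinyllysine coverage was thus lowest where that of H3K4me3 was close to its highest. Its larger shoulder was upstream, while that of H3K4me3 was downstream. H3K4me3 coverage had a shallow notch of its own, 78.5% at 200 bp upstream against 80.4% at 400 bp upstream.

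**Figure D1:**
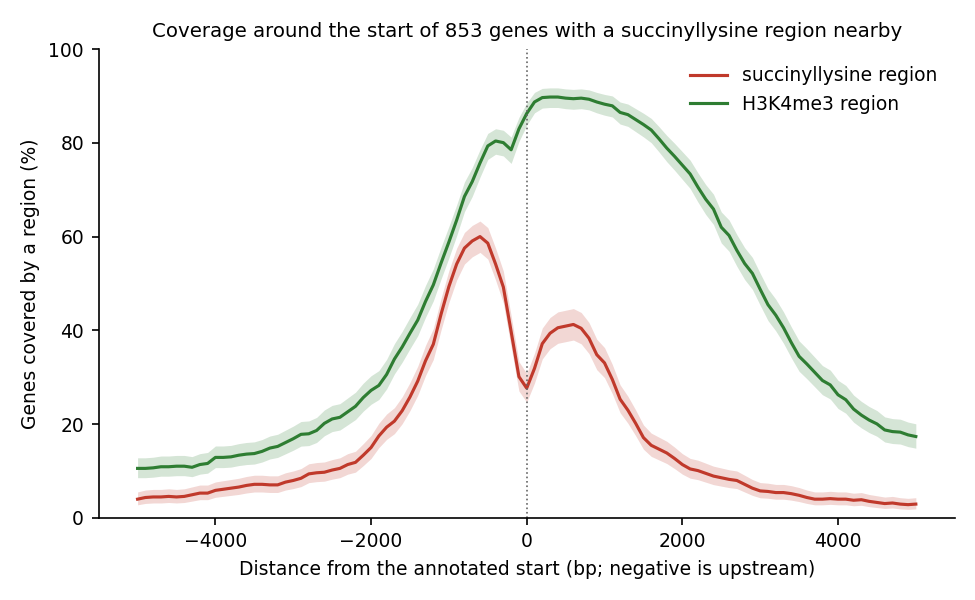
Share of the 853 genes with a succinyllysine region within 1000 bp of the annotated start (y axis, percent) that were covered by a succinyllysine or an H3K4me3 region at each distance from the start (x axis, bp), with exact 95% intervals as bands. The genes were chosen for a succinyllysine region near the start, so the height of that curve is set by the choice, and the feature to see is the fall from 60.0% upstream to 27.7% at the start.

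By gene, the start was covered in 236 of the 853 (27.7%). In 367 (43.0%) the regions lay only upstream, in 201 (23.6%) only downstream, and in 49 (5.74%) separate regions stood on both sides of an uncovered start. H3K4me3 covered the start of 736 of the same 853 genes (86.3%). Where both were present near the start, the widest succinyllysine region reached farther upstream than H3K4me3 in 220 of 780 genes (28.2%) and farther downstream in 36 (4.62%). A divergent start, of a neighbour transcribed the other way from within 2000 bp upstream, was present in 171 of the 853 genes (20.05%), close to the 21.7% among all genes with H3K4me3 near the start. Among the 682 genes without a divergent start, 296 (43.4%) had regions only upstream and 158 (23.2%) only downstream, and among the 171 with one 71 (41.5%) and 43 (25.1%).

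Sequences of both kinds of promoter are shown because the letter content of the promoter differed with the position of the region. They are the 4 of each kind with the widest region among genes whose annotated start lay within 100 bp of the gene end. The 250 bases before the start are written 5′ to 3′ on the strand of the gene (RefSeq, GRCm38.p6), with each CpG dinucleotide in capitals. CpG is the site of DNA methylation in mammals and is rare in the genome outside promoters of the CpG island type. In the first 4 genes the stretch lay wholly inside a succinyllysine region.

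Ugt1a1 (chr1:88211709-88211958, plus strand): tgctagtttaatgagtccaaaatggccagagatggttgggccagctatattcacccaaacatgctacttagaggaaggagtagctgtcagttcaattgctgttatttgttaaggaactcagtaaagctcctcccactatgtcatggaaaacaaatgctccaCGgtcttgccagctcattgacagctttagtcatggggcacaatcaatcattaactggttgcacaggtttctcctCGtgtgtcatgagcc
Syt8 (chr7:142434600-142434849, plus strand): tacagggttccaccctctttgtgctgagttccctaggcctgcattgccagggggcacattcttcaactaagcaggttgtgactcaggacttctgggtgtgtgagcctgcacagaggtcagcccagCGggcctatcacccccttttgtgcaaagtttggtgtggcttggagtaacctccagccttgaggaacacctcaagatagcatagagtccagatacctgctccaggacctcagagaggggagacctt
S100a4 (chr3:90603520-90603769, plus strand): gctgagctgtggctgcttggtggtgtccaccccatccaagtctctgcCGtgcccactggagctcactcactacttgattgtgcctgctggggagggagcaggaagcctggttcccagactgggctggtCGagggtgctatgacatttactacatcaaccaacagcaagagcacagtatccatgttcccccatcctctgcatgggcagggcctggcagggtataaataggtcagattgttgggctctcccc
Btbd19 (chr4:117125659-117125908, minus strand): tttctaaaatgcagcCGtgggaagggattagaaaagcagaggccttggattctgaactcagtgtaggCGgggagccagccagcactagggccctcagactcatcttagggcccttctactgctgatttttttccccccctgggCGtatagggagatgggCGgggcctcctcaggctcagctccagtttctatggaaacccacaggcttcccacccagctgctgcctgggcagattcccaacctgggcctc

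In the next 4 genes a wide region lay close by, and none of the 250 bases was inside it.

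Cdkn1b (chr6:134920151-134920400, plus strand): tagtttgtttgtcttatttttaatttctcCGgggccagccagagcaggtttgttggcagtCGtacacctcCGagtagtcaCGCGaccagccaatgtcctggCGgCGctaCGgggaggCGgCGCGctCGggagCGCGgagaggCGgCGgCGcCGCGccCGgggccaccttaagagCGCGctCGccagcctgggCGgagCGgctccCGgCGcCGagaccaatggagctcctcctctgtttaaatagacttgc
Hoxa9 (chr6:52227371-52227620, minus strand): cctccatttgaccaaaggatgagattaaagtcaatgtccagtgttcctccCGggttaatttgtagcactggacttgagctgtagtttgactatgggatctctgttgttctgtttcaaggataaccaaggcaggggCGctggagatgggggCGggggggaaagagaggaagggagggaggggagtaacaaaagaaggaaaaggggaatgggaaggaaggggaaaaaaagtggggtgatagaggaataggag
Hoxd13 (chr2:74667975-74668224, plus strand): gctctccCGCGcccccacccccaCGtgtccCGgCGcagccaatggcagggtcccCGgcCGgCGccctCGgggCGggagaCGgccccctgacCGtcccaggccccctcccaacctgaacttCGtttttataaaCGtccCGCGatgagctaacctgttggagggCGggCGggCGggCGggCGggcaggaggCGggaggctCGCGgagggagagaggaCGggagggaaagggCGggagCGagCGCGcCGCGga
Mbnl2 (chr14:120275419-120275668, plus strand): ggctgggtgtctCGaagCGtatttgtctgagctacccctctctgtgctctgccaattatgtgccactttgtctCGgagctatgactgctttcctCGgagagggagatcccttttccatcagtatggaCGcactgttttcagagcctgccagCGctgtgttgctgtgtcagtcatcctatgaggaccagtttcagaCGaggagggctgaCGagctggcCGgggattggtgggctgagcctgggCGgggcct

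The covered stretches of Ugt1a1, Syt8, S100a4 and Btbd19 held 2, 1, 2 and 4 CpG. The uncovered stretches of Cdkn1b, Hoxd13 and Mbnl2 held 28, 31 and 10, while that of Hoxa9 held 3, so the separation by position was not complete. The genes shown also differed in H3K4me3: Syt8 and Btbd19 had no such region near the start, and all the others had one. In Cdkn1b, which encodes the cell cycle inhibitor p27, the region of 8200 bp began 100 bp after the start and ran through the gene. At Hoxd13, a limb patterning factor, the widest of the regions, at 4600 bp, ended 925 bp before the start. S100a4, a calcium-binding protein of motile mesenchymal cells, had a promoter with the letters tataaa and a region of 8000 bp across it.

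Over all promoters the measure was the CpG ratio, the number of CpG observed over the number that the C and G content would give, in the 300 bases from 250 before to 50 after the start. Its median was 0.631 in the 236 genes whose start was covered and 0.822 in the 617 genes with a region nearby and an uncovered start. Genes without a succinyllysine region but with H3K4me3 near the start had a median of 0.789. A ratio of at least 0.6 was found in 52.5% (46.0 to 59.1) of covered starts and 77.8% (74.3 to 81.0) of uncovered ones. Among genes that also had H3K4me3 near the start, these shares were 59.4% (52.4 to 66.2) and 83.4% (80.1 to 86.4).

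Region width moved with coverage of the start as well: 73 of 139 starts (52.5%) were covered where the widest region was over 2000 bp, against 163 of 714 (22.8%) where it was narrower. A wider region placed near a start covers it more often by its size alone, and the part this plays was not tested. The difference by CpG content was present in both width classes. Among the narrower ones the start was covered in 37.9% (30.8 to 45.4) of genes with a ratio below 0.6 and 17.7% (14.5 to 21.2) of genes at or above it. Among those over 2000 bp the shares were 64.2% (51.5 to 75.5) and 41.7% (30.2 to 53.9). The part that read coverage of CpG-rich sequence plays in these shares was not tested.

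**Figure D2:**
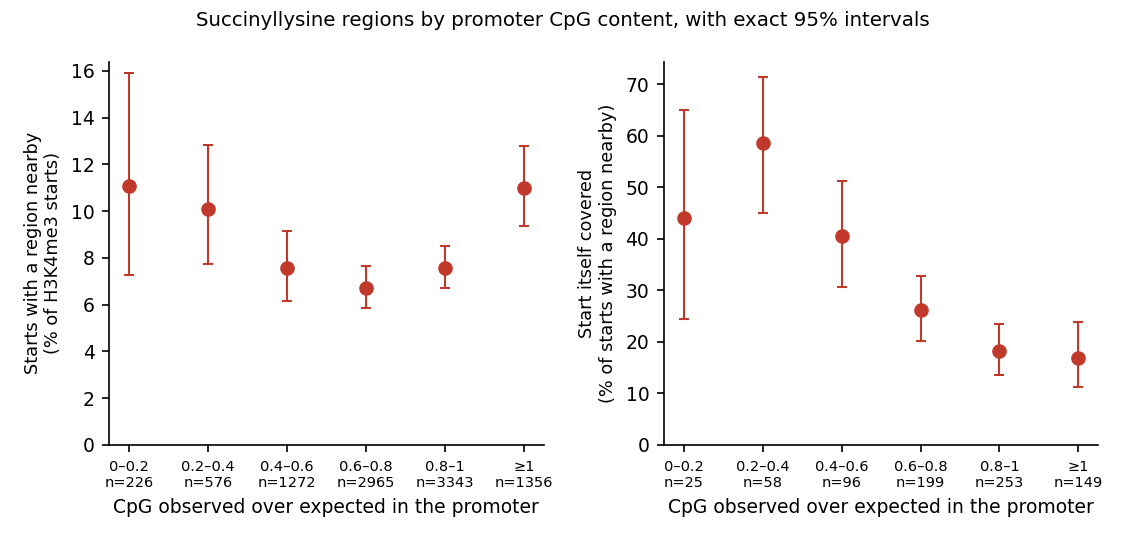
Left, share of starts with H3K4me3 that had a succinyllysine region within 1000 bp (y axis, percent), by the CpG ratio of the promoter (x axis); right, share of those starts that were themselves covered. Bars are exact 95% intervals and n is the number of starts; the right panel shows 44.0% at ratios below 0.2, 58.6% at 0.2 to 0.4 and 16.8% at 1 and above, while the left panel shows 11.1%, 10.1% and 11.0% in the same classes.

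Having a region nearby at all followed a different course across the CpG classes of H3K4me3 starts. It held for 11.1% (7.29 to 15.9) at ratios below 0.2, for 10.1% (7.74 to 12.8) at 0.2 to 0.4, for 6.71% (5.84 to 7.67) at 0.6 to 0.8 and for 11.0% (9.37 to 12.8) at 1 and above. The intervals of the class with the most CpG and of the class at 0.2 to 0.4 lay above that of the class at 0.6 to 0.8, and the interval of the class with the least CpG overlapped it.

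Short binding motifs were counted on both strands of the same 300 bases. The GC box bound by Sp1 and KLF factors, GGGCGG, was in 63.3% of the 853 marked promoters, 46.3% of all 17492 and 68.9% of those with H3K4me3. The TATA box, TATAAA, was in 9.85% (7.93 to 12.0) of marked promoters, between the 13.3% of all and the 6.53% of those with H3K4me3. The cAMP response element, TGACGTCA, to which CREB and ATF factors bind, was in 42 marked promoters, 4.92% (3.57 to 6.60), against 2.33% of all and 3.52% of those with H3K4me3. The CCAAT box, CCAAT, was in 38.6%, with 39.2% in all promoters. The AP-1 element, TGANTCA, was in 6.33% of marked promoters, 7.03% of all and 4.00% of those with H3K4me3. The E-box, CACGTG, was in 11.5%, 7.91% and 10.5% in the same order. The serum response element was in 2.23% (1.35 to 3.46) of marked promoters, 1.56% of all and 1.22% of those with H3K4me3. The interval of the marked promoters left out the share in all promoters for the GC box, the cAMP response element and the E-box, which were more frequent, and for the TATA box, which was less frequent. Against promoters with H3K4me3, the intervals for the TATA box, the cAMP response element, the AP-1 element and the serum response element lay above the H3K4me3 share. That of the cAMP response element did so only just, at 3.57% against 3.52%. The interval for the GC box lay below, while the E-box and the CCAAT box did not differ beyond the interval. Of the 853 marked promoters 780 had H3K4me3 near the start. The part that the others play in these differences was not tested.

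The widest regions at gene ends named a mixed set of genes. The 14700 bp region by Zfp982, a zinc finger gene in a chromosome 4 array of near-identical copies, is uncertain, because reads from such copies cannot be told apart. The 14000 bp region (chr1:88211201-88225200) covered the end shared by the Ugt1a genes, which encode enzymes that conjugate bilirubin and drugs to glucuronic acid. Lsp1, an actin-binding protein first known from leukocytes, and Syt8, a synaptotagmin, neighbours on chromosome 7, had regions of 10000 and 8900 bp with no H3K4me3 region touching them.

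Fbln2, which encodes the matrix protein fibulin-2, had a region of 8200 bp (chr6:91203801-91212000) that lay upstream and did not touch H3K4me3. Col6a1, a chain of collagen VI, had one of 7100 bp (chr10:76726201-76733300), also upstream and without H3K4me3. Lmna, which encodes the nuclear lamins A and C, had a pair of regions 100 bp apart. The region of 6300 bp (chr3:88503801-88510100) crossed the gene end on the start side and the region of 6500 bp (chr3:88510201-88516700) lay upstream. The annotated start of Lmna lies inside that gene end and was not covered. The region of 6300 bp ended 449 bp before it. Cdkn1b, the S100a3 and S100a4 pair, Sbno2, Ptpa, a shared region at Btbd19, Tctex1d4 and Plk3, Morn1 and Trps1 completed the 15 widest, at 8200 to 6000 bp. Of these 15 regions 6 did not touch H3K4me3: those of Lsp1, Syt8, Fbln2, Col6a1 and the Btbd19 group, and the outer region of Lmna. None of the 15 touched H3K27me3.

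Marked genes were then counted in 40 lists of genes with a common function. The lists were chosen with earlier results of these data known, and no list was tested. The lists held 1320 genes, of which 170 were marked (12.9%), against 4.94% of genes in no list, and the median list share was 12.5%. Lists of well-studied cellular functions are rich in expressed genes, and 36 of the 40 lists had H3K4me3 at 80% or more of their members, while 55.6% of all genes had it. The second yardstick was therefore the share marked among genes with H3K4me3, 8.46%. The exact interval lay above the background of 5.42% for 15 lists and above 8.46% for 6 lists, and for no list lay below either. Members that are neighbours can share a region, also across lists, and are not independent. Unless a position is named, a width given below is that of the widest region at either gene end. Such a region need not lie at the start of the gene.

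**Figure D3:**
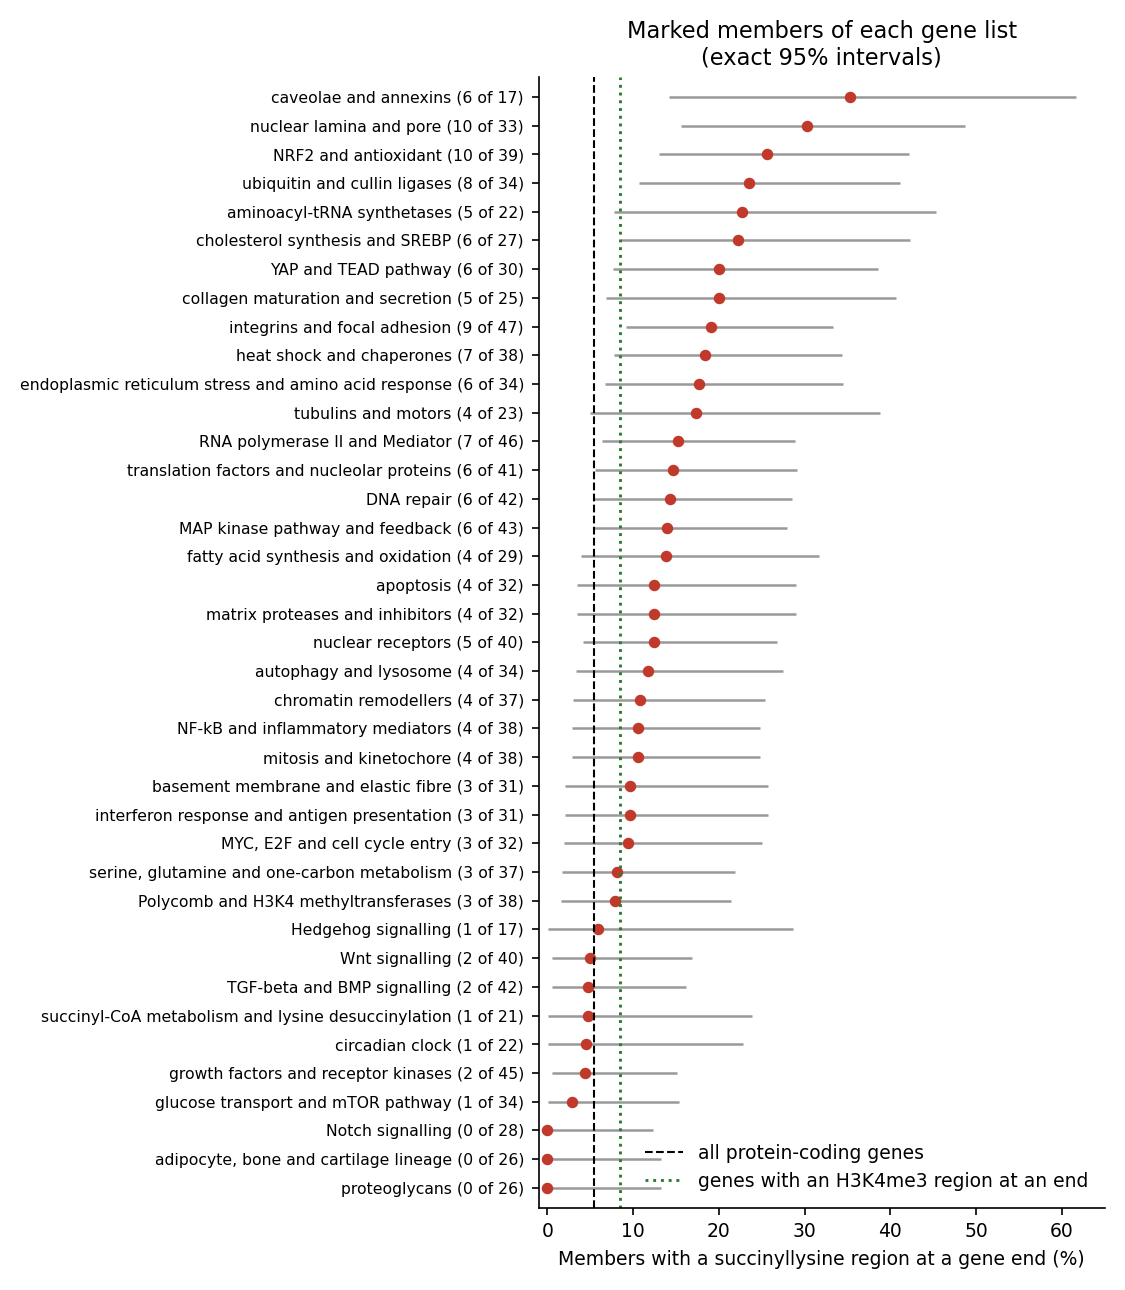
Share of the members of each gene list reported here with a succinyllysine region within 1000 bp of a gene end (x axis, percent), with exact 95% intervals and the count of marked members beside each name. The dashed line is the 5.42% of all protein-coding genes and the dotted line the 8.46% of genes with H3K4me3; the caveolae, nuclear lamina and antioxidant lists stand highest and 3 lists are at 0.

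Caveolae are flask-shaped pits of the plasma membrane, and annexins bind membranes in the presence of calcium. Of 17 such genes 6 were marked (35.3%, 14.2 to 61.7), all 17 with H3K4me3. Cav1 and Cavin1, which encode the coat of the caveola, had regions of 1500 and 1700 bp at their starts. Anxa5 was marked at both ends, by up to 1600 bp, and Ahnak, which encodes a giant scaffold protein that binds annexin complexes, had 3000 bp at its far end.

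Genes of the nuclear envelope and of transport through the pore were marked in 10 of 33 cases (30.3%, 15.6 to 48.7). After Lmna the widest regions were those of Nup62, a pore channel protein, with 1800 bp, Tmpo, a lamina-binding protein, with 1500 bp, and Nup107, of the pore scaffold, with 1300 bp. These lay within 1000 bp of the start end of the gene. For Tmpo that end is not a start in the promoter table. The region of Nup62 also marks its neighbours Atf5 and Il4i1b. The remaining 6 members had regions of 1200 bp or less.

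The antioxidant list, built around targets of the transcription factor NRF2, had 10 marked members of 39 (25.6%, 13.0 to 42.1). Gpx4, the glutathione peroxidase that reduces lipid peroxides, and Sqstm1, which encodes the autophagy receptor p62, each had a region of 4200 bp. That of Sqstm1 ended 81 bp before the annotated start, and that of Gpx4 began 935 bp after it. Fth1, the ferritin heavy chain, had 2000 bp and Nqo1, a quinone reductase, 1500 bp. Ftl1, the ferritin light chain, Gpx1, Prdx1 and Txn1 were among the other marked members.

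Ubiquitin and its conjugation machinery were marked in 8 of 34 genes (23.5%, 10.7 to 41.2). Among them were the E2 enzyme genes Ube2b with 1900 bp and Ube2m with 1200 bp, and Ubb, a polyubiquitin gene, with 1100 bp. In cholesterol synthesis 6 of 27 genes were marked (22.2%, 8.62 to 42.3). They included the regulator Srebf2 with 3600 bp, Insig1, which holds it back, with 2600 bp, and the synthase gene Hmgcs1 with 2400 bp. Thus the marked members included a regulator of the pathway and its inhibitor as well as enzymes.

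Focal adhesion genes were marked in 9 of 47 cases (19.1%, 9.15 to 33.3). Tln2, a talin that links integrins to actin, had 3200 bp, the adaptor Lpp 2600 bp and the kinase Src 2100 bp. These 6 lists, caveolae, nuclear lamina, antioxidant, ubiquitin, cholesterol and focal adhesion, were the ones whose interval lay above 8.46%. The intervals are not corrected for the number of lists read, and that of cholesterol began only just above, at 8.62%.

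A further 9 lists had an interval that exceeded the background but not 8.46%, and those reported here follow. Aminoacyl-tRNA synthetases, which load amino acids onto tRNA, were marked in 5 of 22 cases, with Vars at 2000 bp, Sars at 1800 bp, Gars at 1300 bp and Eprs at 1000 bp. The YAP and TEAD pathway, which senses cell contact and tension, had 6 of 30. Axl, Ptpn14, Amotl2 and Ccn1 had 2800, 2300, 1900 and 1800 bp. Collagen maturation and secretion had 5 of 25, led by Serpinh1, the collagen chaperone, with 2500 bp, Mia3 and Sec23a with 1100 bp each, and Pcolce with 1000 bp. Heat shock genes had 7 of 38, with Hspa8 at 2600 bp, Hspa4 and Hspa9 at 1800 bp and Hspa1b at 1500 bp.

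In the endoplasmic reticulum stress list 6 of 34 were marked, including the stress transcription factor genes Atf4 with 1900 bp and Atf5 and Atf6b with 1800 bp each. The region at Atf5 is the same one that was counted for Nup62. RNA polymerase II and Mediator had 7 of 46, with Hexim1, an inhibitor of the elongation kinase, at 2100 bp and Polr2a, the largest polymerase subunit, at 1700 bp. Translation factors had 6 of 41, led by Eef1g with 3800 bp. DNA repair and the MAP kinase pathway, with 6 of 42 and 6 of 43, had lower bounds of 5.43% and 5.30%, on either side of the background.

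In the middle of the order, intervals included both yardsticks. Matrix proteases and inhibitors had 4 of 32 marked, among them the urokinase receptor gene Plaur with 4100 bp, Mmp14 with 3300 bp and Adamts4 with 2900 bp. Basement membrane and elastic fibre genes had 3 of 31, Fbln2, Lamb2 with 3100 bp and Sparc with 2400 bp. Nuclear receptors had 5 of 40, led by Nr4a1 and by the retinoic acid receptor gene Rarg with 2300 bp. Fatty acid synthesis and oxidation had 4 of 29, with the synthesis genes Scd2 at 2800 bp and Fasn at 2500 bp. Tubulins and motors had 4 of 23, all of them tubulins, with Tubb5 at 2700 bp.

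Lists of 4 marked members were apoptosis (of 32; Cflar at 1200 bp), autophagy and lysosome (of 34; Gabarap at 1500 bp), chromatin remodellers (of 37; Chd2 at 3600 bp), NF-kB and inflammatory mediators (of 38; Cxcl5 at 2200 bp) and mitosis (of 38; Smc4 at 1600 bp). Lists of 3 were interferon response (of 31; Ifitm3 at 2000 bp), MYC, E2F and cell cycle entry (of 32; Cdk4 at 1400 bp), serine, glutamine and one-carbon metabolism (of 37; Slc38a2 at 900 bp) and Polycomb with the H3K4 methyltransferases (of 38; Ezh2 at 700 bp). A single member was marked among Hedgehog genes (of 17; Gas1), clock genes (of 22; Nr1d1) and genes of glucose transport and mTOR (of 34; Arrdc3). Cxcl5, a neutrophil-attracting chemokine gene, was marked by 2200 bp with no H3K4me3 region at its ends.

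The lists without a marked member were Notch signalling (0 of 28, which allows up to 12.3%), adipocyte, bone and cartilage genes (0 of 26, up to 13.2%) and proteoglycans (0 of 26, up to 13.2%). Notch genes had H3K4me3 in 82.1% of cases and the adipocyte, bone and cartilage genes in 38.5%. Growth factors and receptor kinases had 2 of 45, Axl with 2800 bp and Ddr2 with 1400 bp. Wnt signalling had 2 of 40, Fzd7 and Gsk3b, and TGF-beta and BMP signalling 2 of 42, Id3 and Fstl1. Each of these intervals includes 5.42%.

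Succinyl-CoA is the donor for succinylation, and the list of genes that make, use or remove succinyl groups had 1 marked member of 21 (4.76%, 0.120 to 23.8). It was Dld, the shared dihydrolipoamide dehydrogenase subunit of the 2-oxoacid dehydrogenases, with 500 bp at its start. Of the same 21 genes 85.7% had H3K4me3.

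Families that share a symbol prefix were compared in the same way, for the 112 prefixes with at least 20 genes. The Ugt family stood first with 10 of 22 (45.5%), through the shared Ugt1a region in 9 of them. It was followed by Fbxw with 5 of 24, Nr (nuclear receptors) with 5 of 26, Zc with 4 of 23, Rpl (large ribosomal subunit) with 9 of 53, Ube with 7 of 42, Ddx (RNA helicases) with 6 of 37 and Cdk with 4 of 26. These families were named because their shares were the highest of the 112. The intervals of Zc (4.95 to 38.8) and Cdk (4.36 to 34.9) include the background of 5.42%. Only the interval of Ugt (24.4 to 67.8) lay above 8.46%. In the Nr family the widest regions were those of Nr4a1 with 5600 bp, Nr1d1 with 3400 bp, Nr2f2 with 1400 bp and Nr4a2 with 1100 bp.

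In 26 families with 694 genes no member was marked. The largest were Scgb with 40 genes, Klhl with 37, Cldn with 35, Adam with 34, Rhox with 33, Cdc with 32, Spata with 30 and Defa with 29. Most of the Scgb (secretoglobin) and Rhox (reproductive homeobox) genes are silent in fibroblasts, and none had H3K4me3. In the Cdc family, by contrast, 31 of 32 genes had H3K4me3 and none was marked, which allows up to 10.9%. Olfactory receptor genes, the largest prefix with 1110 members, are not expressed in fibroblasts, and 35 were marked (3.15%, 2.21 to 4.36), all by regions of 500 bp or less.

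The median gap from a region to its nearest neighbour in the list was 16200 bp. Neighbours within 1000 bp were found for 19.6% of regions and within 10000 bp for 41.9%. The gap was 600 bp at the median for regions over 2000 bp, 74.7% of which had a neighbour within 10000 bp, and 22100 bp for regions of 200 bp. The H3K4me3 list had a median gap of 11000 bp with its larger number of regions, and the H3K27me3 list one of 500 bp. Some neighbours abutted: 805 regions had a gap of 0 to the next. Whether abutting regions were cut from a single enriched stretch was not tested.

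**Figure D4:**
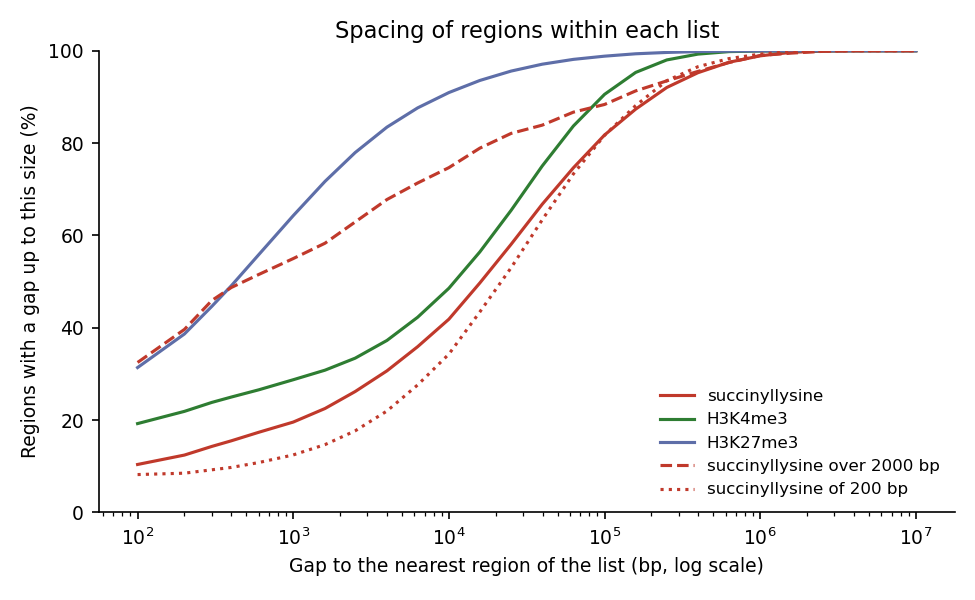
Share of regions (y axis, percent) whose nearest neighbour in the same list lay within the gap on the x axis (bp, log scale), for the 3 lists and for the wide and the narrowest succinyllysine regions. The dashed curve of regions over 2000 bp lies far above the dotted curve of 200 bp regions up to about 10000 bp, where they stand at 74.7% and 34.3%.

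With gaps of at most 10000 bp and at least 3 regions, 550 clusters were found. They held 2175 regions (19.98%) and 35.2% of the base pairs in the list, and 396 of the 782 regions over 2000 bp. Of the clusters 279 (50.7%) reached no protein-coding gene, 122 held a marked gene and 272 (49.5%) had no H3K4me3 region anywhere in their span. Most were small: 321 had exactly 3 regions, 119 had 5 or more and 12 had 10 or more. When regions within 1000 bp of each other were first merged, 275 clusters were found.

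The largest cluster lay between Cebpb, which encodes a transcription factor of inflammation and adipogenesis, and Ptpn1, a tyrosine phosphatase gene (chr2:167732201-167864000). It had 24 regions over 131800 bp and covered 68.4% of that span, with region widths from 600 to 27800 bp and a median of 1300 bp. Its 27800 bp region was the widest of the whole list and the only one of the 24 to touch H3K4me3. The cluster began 41769 bp from Cebpb and ended 66750 bp from Ptpn1, and the only genes inside it were noncoding.

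The Tubd1 and Vmp1 cluster (chr11:86568701-86629000) had 16 regions, covered 72.0% of 60300 bp and held Mir21a, whose sequence stands above. The Haao and Zfp36l2 interval (chr17:83945001-84005200) had 12 regions over 60200 bp, up to 14300 bp wide, with no H3K4me3 or H3K27me3 region in its span. The Syt8, Tnni2, Lsp1 and Tnnt3 cluster (chr7:142428401-142501500) had 10 regions over 73100 bp, up to 18200 bp wide, again with neither histone mark. Tnni2 and Tnnt3 encode troponins of fast skeletal muscle. The Mrpl33 and Rbks cluster had 10 regions, of 1300 to 6600 bp, over 49800 bp.

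The other named clusters were of another build. At Cyp3a41b and Cyp3a41a, near-identical cytochrome P450 genes of liver, 22 regions of 200 to 2400 bp covered 26.6% of 70200 bp; 10 touched H3K4me3, 9 touched H3K27me3 and 6 touched both. The Chd6 and Ptprt interval had 12 regions with a median of 250 bp covering 8.83% of 38500 bp, and Tdpoz4, in an array of related genes, had 12 with a median of 350 bp. Reads from near-identical copies cannot be told apart, so the regions at Cyp3a41 and Tdpoz4, like those at related Ugt genes, are uncertain. Over the list 143 regions (1.31%) touched both histone lists, 44 of them on chromosome 4, and without such regions 522 clusters were found.

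**Figure D5:**
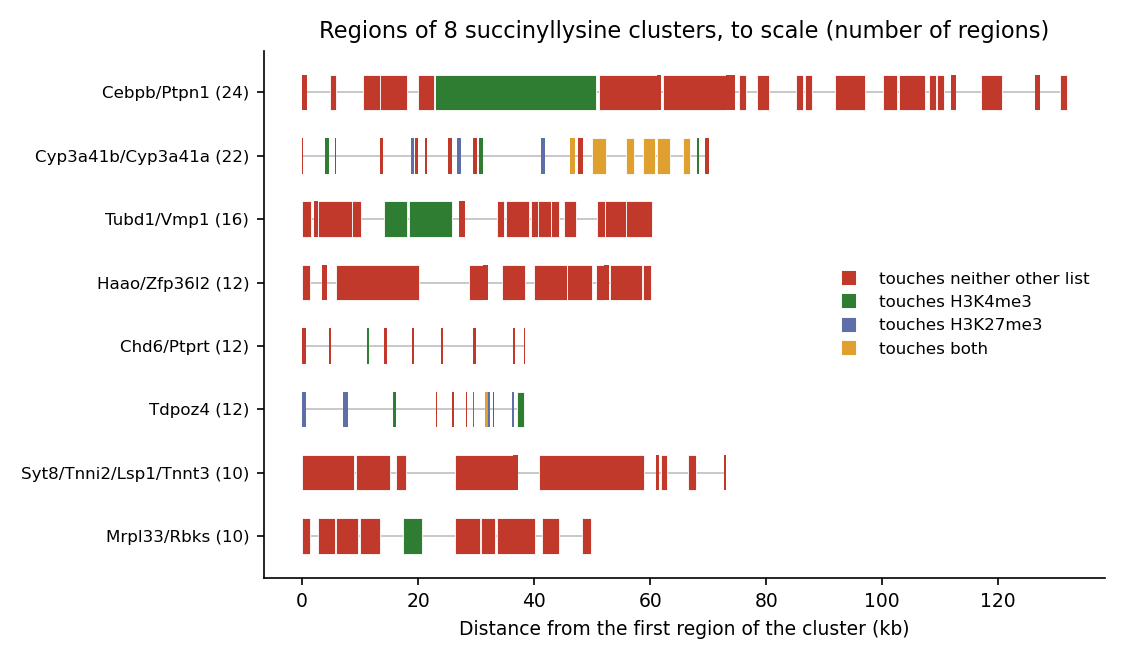
Regions of the 8 clusters named by number of regions or span, drawn to scale from the first region of each (x axis, kb), with the number of regions in brackets and colour showing which other list a region touches. Regions that touch neither list cover 47.3% of the span of the Cebpb cluster and 53.1% to 71.9% of the Vmp1, Zfp36l2, Lsp1 and Rbks clusters, against 6.70% of the Cyp3a41 and 2.09% of the Tdpoz4 cluster.

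The genes with the most regions in the gene and its windows were Ptprt with 35, St6galnac3 with 33, Ptprn2 with 28, Tafa2 with 26, Clstn2 with 25, Dab1 and Negr1 with 23 each and Dlgap1 with 22. They are 477181 to 1139160 bp long, and most are known from neurons, as receptor phosphatases, adhesion proteins or synaptic scaffolds. Median region width in them was 200 to 400 bp. Of the 8 genes, 7 had no region at an end, and Negr1 had 1 of 200 bp. Per 100 kb of gene and windows they had from 2.04 regions in Dab1 to 6.24 in St6galnac3, while the mean over the chromosomes was 0.404. These genes were chosen for their number of regions, so their density is a description.

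Of the 1187 marked genes 535 (45.1%) had a marked gene as a direct neighbour, against 8.33% of unmarked genes. Of the marked genes 202 (17.0%, 14.9 to 19.3) had a marked neighbour with which they had no region in common. There were 44 runs of at least 3 marked genes with none unmarked between them, holding 153 genes. The longest, 8 Ugt1a genes, rested on a single region, as did 3 other runs. The run Mtx1, Thbs3, Muc1, Trim46 and Krtcap2 had 5 regions of 900 to 3300 bp over 40.6 kb. S100a3, S100a2, S100a4, S100a5 and S100a6, calcium-binding proteins of 1 gene cluster, were joined by 3 regions of 4400 to 8000 bp. The macrophage marker gene Cd68 stood in a run with Mpdu1, Eif4a1 and Senp3 that rested on 2 regions, and Pfn1, Eno3, Spag7 and Camta2 formed another run of 4. The number of runs depended on the window: it was 29 at 500 bp and 83 at 2500 bp.

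Chromosomes differed in density, and the X chromosome stood lowest among those with more than a few regions. It had 66 regions, or 0.386 per Mb, while the autosomes had 2.56 to 6.62 per Mb with a median of 4.401. H3K4me3 was also sparser on X, with 3.90 regions per Mb against 6.91 to 14.5. Relative to that mark, X had 9.91 succinyllysine regions per 100 H3K4me3 regions and the autosomes 31.4 to 57.2. The share of marked genes differed less, with 29 of 966 on X (3.002%, 2.02 to 4.28) against 3.83% to 8.24% on the autosomes. The labels do not give the number of X chromosomes in these lines, and its part in these densities was not tested. Chromosome 3 had the highest share of marked genes, 81 of 983 (8.24%, 6.60 to 10.1).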

How the data were processed

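ChIP-seq used formaldehyde-fixed chromatin cut with micrococcal nuclease and sonication, per the labels' protocols. Alignment to mm10 used Bowtie2 2.2.3, per the submitters' processing notes. The deposited values are start and end positions of regions on a grid of 100 bp, with no other unit. Not given in the sources used here are the caller, its settings, whether the 4 input samples entered and whether samples were pooled. The depth is unknown, so intervals cover counting error only. The 16 samples carry no values of their own in the lists, and 0 columns of other samples were set aside.

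Gene ends came from a RefSeq table (GRCm38.p6). Its promoter table gave the strand and starts of 17492 of 21887 genes, and its outermost start equalled the gene end in 60.5% and lay within 1000 bp of it in 90.1%. Of 1333 list names 1331 matched. Counts, gaps and exact Clopper-Pearson 95% intervals were computed with Python 3.11.15, pandas 2.3.3 and scipy 1.17.1, and no test between groups or of a list was made. The functions were tested on simulated data, in which 200 of 200 planted genes and 30 of 30 planted clusters were found. The succinyllysine regions, the 40 gene lists and the 7 motifs were chosen with earlier results of these data known. Named genes were those at the 15 widest regions at gene ends, up to 4 marked members per list by width, the genes of the 6 clusters with the most regions and the 6 with the longest span, the 6 longest runs, the 8 genes with the most regions, and the 8 prefix families with the highest share and the 8 largest without a marked member; genes named elsewhere, such as microRNAs and Hox genes, were chosen after their values were seen. Some genes, 1 run and 1 list that the rule covers are not reported here. The alternatives tried were windows of 500 and 2500 bp, region midpoints, regions wider than the median of 300 bp, removal of regions touching both other lists, autosomes alone, cluster gaps of 5000 and 25000 bp, and merging within 1000 bp. The outermost annotated start was an alternative added after the data were seen.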

Additional observations from a re-analysis of the deposited data

How the results depend on the processing

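Under 31 alternative settings for the 5 counts, 25 values stayed within 1.5 times of the value reported. The counts of marked genes, of regions at gene ends and of genes marked at the start end did so under all of their settings, with 892 to 1524, 858 to 1487 and 621 to 994. The 44 runs of marked genes became 29 with a window of 500 bp, 83 with 2500 bp and 18 when the midpoint of the region had to lie inside the window. The 550 clusters became 908 with gaps up to 25000 bp, 275 after merging regions within 1000 bp and 260 with regions wider than the median alone; fewer regions entered the last 2 counts. All 120 list shares under the alternative windows and widths, and all 7 motif shares, stayed inside the interval of the value reported. The list intervals are wide: with 500 bp the apoptosis share fell from 12.5% to 6.25% and was still inside. Neither the list intervals nor the 8.46% were recomputed under the alternatives. Whether the same lists would lie above a yardstick was therefore not tested. The share of genes marked was 4.67% with 500 bp and 6.96% with 2500 bp, and 33 and 35 of the 40 lists lay above it, against 31 at 1000 bp. No paired analysis was possible because each antibody has a single list without values per sample. For the same reason no sample could be left out in turn. Unknown depth limits every absence of a region: it shows only that none was listed.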

Other observations

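Genes that do not encode proteins were counted in the same way, beside the 5.42% of protein-coding genes. A region within 1000 bp of an end was found for 434 of 12727 long noncoding RNA genes (3.41%, 3.10 to 3.74), 31 of 1228 microRNA genes (2.52%, 1.72 to 3.56), 10 of 408 tRNA genes (2.45%, 1.18 to 4.46), 18 of 1340 snoRNA genes (1.34%, 0.798 to 2.11) and 134 of 9944 pseudogenes (1.35%, 1.13 to 1.59). None of 63 rRNA genes was marked, which allows up to 5.69%. Antibody and T cell receptor V segments, which are inactive in fibroblasts, had 9 marked of 394 (2.28%, 1.05 to 4.29). The intervals for miscellaneous RNA genes (4 of 94, 1.17 to 10.5), guide RNA genes (0 of 41) and rRNA genes include 5.42%.

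Of 36 well-known long noncoding and structural RNA genes 6 were marked, while 3.41% of all long noncoding RNA genes were. The 36 were chosen as well known, and no share among genes with H3K4me3 was set beside them. Pvt1, a neighbour of Myc, had the widest region, 1900 bp. The adjacent genes Neat1 and Malat1, whose RNAs stay in the nucleus, had 1100 and 1000 bp, and Jpx, an X-linked gene of the X inactivation centre, had 1100 bp. Snhg15 and Snhg8, hosts of small nucleolar RNAs, had 900 and 800 bp. Xist, H19, Meg3, Kcnq1ot1 and Gas5 had none.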
